A study of Mus musculus with 6 samples.

Results

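The genes described here encode enzymes of central carbon metabolism: 14 of glycolysis, 2 of pyruvate and lactate handling, 4 of the pentose phosphate pathway, 10 of the tricarboxylic acid (TCA) cycle, and Acod1, the enzyme that makes itaconate. They are 31 of the 54532 genes in the deposited table. They were chosen by gene symbol, with no cut on a measured value but with earlier results of these data known. All 31 had enough reads to be tested. RNA was sequenced from RAW264.7, a mouse macrophage-like cell line. There are 3 libraries, called labelled libraries here, whose genotype is given as ERMAP knockdown and whose treatment is given as shRNA (short hairpin RNA, which directs degradation of a chosen mRNA). They are set against 3 libraries of wild-type RAW264.7 cells with no treatment recorded, called control here. A lentivirus carrying the ERMAP shRNA is named in the treatment protocol of all 6 samples, so the labels do not settle whether the control cells carried a virus, and they describe no non-targeting shRNA. Whether the replicates came from different cultures is not stated, and the p-values below therefore cover the spread among the 6 libraries and possibly no more than technical variation. The comparison addresses which transcripts differ once ERMAP, a membrane protein of the butyrophilin family, is targeted.

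Glycolysis splits glucose into pyruvate, which is either reduced to lactate in the cytosol or oxidised in the mitochondrial TCA cycle, while the pentose phosphate pathway diverts glucose 6-phosphate to make NADPH and ribose. Macrophages activated by bacterial products are known for high glycolytic flux and for a TCA cycle that is drawn off at citrate and succinate. In them Acod1 (also called Irg1) is induced and converts cis-aconitate, a TCA cycle intermediate, into itaconate, which inhibits succinate dehydrogenase.

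Summed read counts were 13447021 to 16602734 per library, and 12491 genes passed a filter on low counts and went into the quasi-likelihood F test of edgeR. A gene was called at a Benjamini-Hochberg adjusted p under 0.05. By this rule 126 genes (1.01%) were higher and 17 (0.136%) lower in the libraries labelled ERMAP shRNA, together 1.14%. Ermap itself had 10, 21 and 14 reads in the labelled libraries and 12, 12 and 3 reads in control libraries, with a log2 fold change of 0.81 (SE 0.52, adjusted p = 0.929 by edgeR), so the targeted transcript was not called lower in the libraries that carry the knockdown label. All 8 macrophage markers had reads, with summed levels of 6936 to 7071 CPM (counts scaled to library size) in the labelled libraries and 6708 to 7001 CPM in control libraries. Of the markers of T cells, fibroblasts and epithelial cells, Cd3e, Cd3d, Cd3g, Cd2, Col1a2, Pdgfra, Epcam and Krt18 had no reads, and none of these 3 lists summed to more than 0.181 CPM in any library. Control replicate 1 stood apart, with 3.69% of its reads on mitochondrial genes against 1.71% to 2.18% in the other 5 libraries. Comparisons are therefore also given without that library. Without it 12793 genes were tested, of which 342 (2.67%) were called higher and 280 (2.19%) lower, together 4.86%.

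Of the 31 enzymes, Acod1 alone was called higher in the libraries labelled ERMAP shRNA and 0 were called lower, against 1.01% and 0.136% of all tested genes. Before adjustment edgeR likewise put 1 enzyme above and 0 below at p under 0.05, against 3.71% and 3.04% of all tested genes (6.76% in either direction), and DESeq2 called Acod1 and no other enzyme. With all libraries the enzymes of glycolysis, the pentose phosphate pathway and the TCA cycle kept within a narrow band: leaving aside Gapdh, which is described below, the 29 uncalled enzymes had log2 fold changes from -0.20 (Aldoc) to 0.20 (Idh3a). Without control replicate 1 the same 29 ran from -0.35 (Aldoc) to 0.28 (Idh3a). The precision is given by the 95% interval of the fold change. With all libraries it lay inside 1.5-fold in either direction for 28 of the 31, beside 7299 of 12491 tested genes. The median log2 fold change of the 31 enzymes was 0.07 with all libraries and -0.01 without control replicate 1, beside -0.01 for all tested genes in both fits. Bulk RNA cannot tell fewer cells expressing an enzyme from less of its RNA in each cell.

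**Figure D1:**
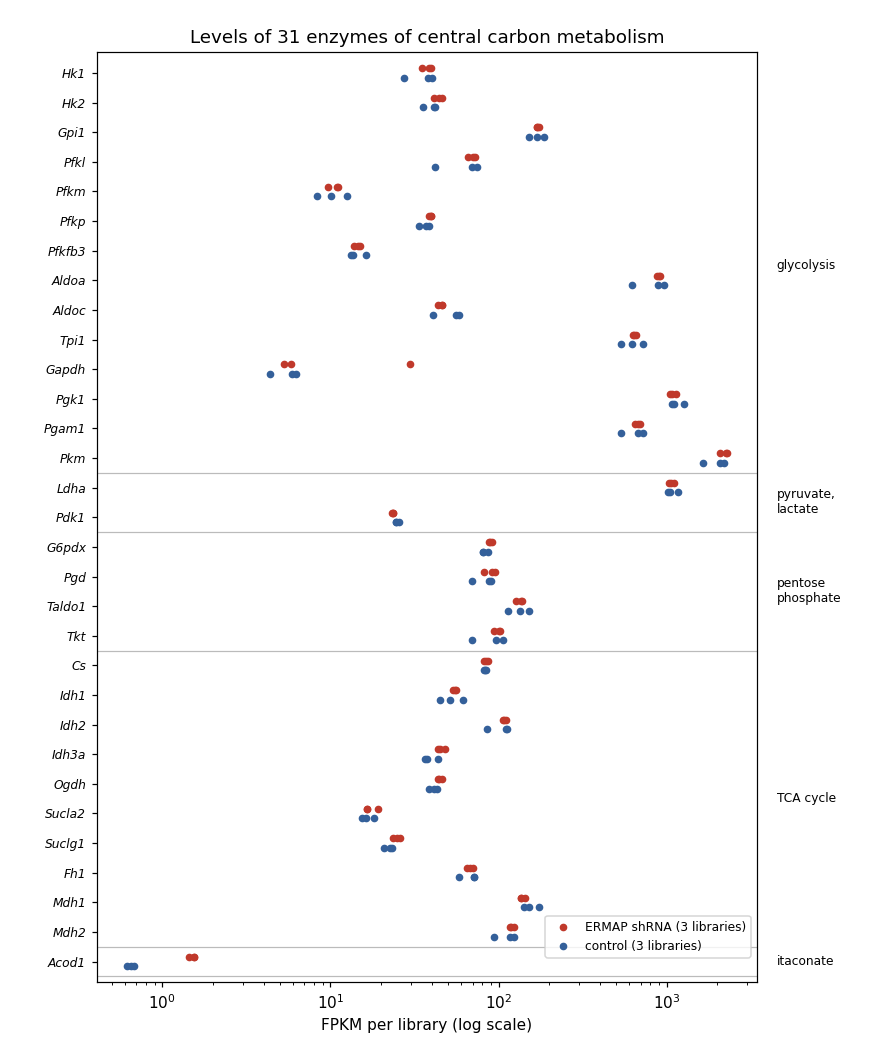
FPKM of the 31 enzymes in each library on a log axis, with 3 libraries labelled ERMAP shRNA in red above 3 control libraries in blue, grouped by pathway. Pkm is the highest with a mean of 2202 FPKM in the labelled libraries, Acod1 the lowest at 1.51 FPKM, and Gapdh has a single labelled library at 29.9 FPKM far from the other 5.

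Acod1 (ENSMUSG00000022126, chromosome 14, positions 103046977 to 103056573 on the plus strand of mm10) had 55, 61 and 57 reads in the libraries labelled ERMAP shRNA, against 26, 27 and 26 reads in control libraries. Scaled for library size and gene length this was 1.55, 1.54 and 1.44 FPKM (fragments scaled to gene length and library size) in the labelled libraries, against 0.677, 0.615 and 0.650 FPKM in control libraries. Replicates lay close together within each group and the groups did not overlap. On the log2 scale Acod1 was higher by 1.22 (SE 0.21, with a 95% interval of 0.74 to 1.69 and an edgeR adjusted p = 0.0354), and without control replicate 1 it was 1.24 (SE 0.27, adjusted p = 0.00531). With any one of the other 5 libraries left out the log2 fold change was 1.17 to 1.25 but the call was lost, with an edgeR adjusted p of 0.154 to 0.223. Although it rose, Acod1 remained the least abundant of the 31 enzymes in both groups. Of the genes listed alongside Acod1 for the later fate of itaconate, Mut, the methylmalonyl-CoA mutase, averaged 16.6 ± 0.803 FPKM in labelled libraries and 17.3 ± 2.85 FPKM in control libraries (SD, n = 3 each, as in every mean below). Clybl, a citramalyl-CoA lyase, averaged 7.25 ± 1.11 FPKM in labelled libraries and 7.32 ± 1.39 FPKM in control libraries. Neither was called, with log2 fold changes of -0.07 and -0.02 (edgeR adjusted p = 0.952 and 0.993).

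The promoter windows of Acod1, Ldha and Pgk1 are shown because they belong to the called enzyme and to abundant enzymes whose window holds ACGTG more than once. Each is the 250 bases before the most upstream RefSeq transcript start on GRCm38.p6, plus strand, printed 5′ to 3′. Ldha has a further RefSeq start, whose window (chr7:46846832-46847081) holds no ACGTG. These starts are RefSeq's and differ from the gene starts in the deposited table for Acod1 and Ldha. Capitals mark ACGTG on either strand, the core of the hypoxia response element and of one E-box type, and the TATA motif TATAAA.
Acod1, chr14:103046762-103047011: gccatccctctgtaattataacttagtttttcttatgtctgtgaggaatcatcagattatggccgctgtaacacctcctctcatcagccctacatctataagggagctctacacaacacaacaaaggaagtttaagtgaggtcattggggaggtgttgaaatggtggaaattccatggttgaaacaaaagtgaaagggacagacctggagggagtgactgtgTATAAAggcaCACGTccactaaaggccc
Ldha, chr7:46845554-46845803: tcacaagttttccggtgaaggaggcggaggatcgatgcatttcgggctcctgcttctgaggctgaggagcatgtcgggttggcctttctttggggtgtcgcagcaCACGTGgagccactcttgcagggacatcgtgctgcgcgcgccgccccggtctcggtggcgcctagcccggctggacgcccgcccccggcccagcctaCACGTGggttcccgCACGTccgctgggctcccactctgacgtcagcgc
Pgk1, chrX:106186850-106187099: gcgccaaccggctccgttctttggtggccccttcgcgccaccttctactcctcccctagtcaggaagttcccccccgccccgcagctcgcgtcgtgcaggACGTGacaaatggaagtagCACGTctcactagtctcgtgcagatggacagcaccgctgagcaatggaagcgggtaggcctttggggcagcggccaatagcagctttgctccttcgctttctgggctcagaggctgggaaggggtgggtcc

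The Acod1 window holds TATAAA beginning 28 bases before the start and the reverse complement of ACGTG 18 bases before it. RefSeq windows were found for 30 of the 31 enzymes, all but Idh3a, with 48 windows in all because several genes have more than one start. ACGTG on either strand was present for 11 of the 30 (36.7%), namely Hk2, Pfkm, Pfkfb3, Aldoa, Pgk1, Pgam1, Pkm, Ldha, Ogdh, Mdh1 and Acod1, against 18.5% of 27025 genes with a window of this length. Counted by window instead of by gene the shares were 39.6% of the 48 and 16.6% of 32851. Windows of a gene can overlap, as some of Ogdh and Aldoa do, so the same ACGTG can be counted more than once. The enzymes also had more windows per gene than all genes, which gives each of them more room for a match. TATAAA was present for Acod1 alone of the 30 (3.33%), against 14.3% of all genes. The AP-1 motif TGANTCA was present for 1 of 30 (3.33%), Aldoa, against 7.82%, the interferon-stimulated response element (GAAA, any 2 bases, GAAA) for 0 of 30 against 3.46%, and the NF-kB motif for 5 of 30 (16.7%) against 8.23%. A match in such a window is a run of letters, not a measured binding site.

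The enzymes that carry out the preparatory steps of glycolysis were not called in either direction. Hk1 and Hk2 are hexokinases, which trap glucose as glucose 6-phosphate. Hk1 stood at 38.7, 35.1 and 39.6 FPKM in labelled libraries, against 27.4, 38.1 and 40.4 FPKM in control libraries, and Hk2 at 44.0, 41.3 and 46.1 FPKM, against 35.4, 41.1 and 41.6 FPKM in control libraries. In both genes control replicate 1 was the lowest of the 6, and the ranges overlapped. Gpi1, which isomerises glucose 6-phosphate to fructose 6-phosphate, averaged 171 ± 2.32 FPKM in labelled libraries and 169 ± 18.3 FPKM in control libraries. Phosphofructokinase commits the sugar to glycolysis and has a liver, a muscle and a platelet isoform. Pfkl, the liver form, stood at 72.6, 66.1 and 70.2 FPKM in labelled libraries, against 41.8, 74.7 and 69.4 FPKM in control libraries. Its log2 fold change of 0.17 (SE 0.20, edgeR adjusted p = 0.944) was -0.06 without control replicate 1, which lay far below the others. Pfkp, the platelet form, stood at 39.6, 39.5 and 38.8 FPKM in labelled libraries, against 33.8, 38.8 and 37.0 FPKM in control libraries. Pfkm, the muscle form, stood at 11.1, 9.70 and 11 FPKM in labelled libraries, against 8.32, 12.5 and 10.1 FPKM in control libraries. Labelled libraries of both lay within the range of the controls or just above it, and reads of Pfkm are uncertain because Senp1 overlaps it on the opposite strand with more reads, 8376 against 3160 summed over the libraries, and the strand setting of the counting is not given in the sources used here. Other enzymes overlap an opposite-strand gene with fewer reads than their own. Among them are Pfkp with Pitrm1 (7763 against 45907 reads of Pfkp), G6pdx with Ikbkg (5230 against 23911) and Gapdh with Iffo1 (1544 against 3594). Pfkfb3, which makes the phosphofructokinase activator fructose 2,6-bisphosphate, averaged 14.5 ± 0.583 FPKM in labelled libraries and 14.4 ± 1.63 FPKM in control libraries.

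Aldolase, which splits fructose 1,6-bisphosphate, was present as a major isoform, Aldoa, and a minor one, Aldoc. Aldoc stood at 151, 142 and 150.2 CPM in libraries labelled ERMAP shRNA, against 134, 192 and 183 CPM in control libraries. Control replicate 1 lay below all labelled libraries and the other 2 controls lay above them. With all libraries the log2 fold change was -0.20 (SE 0.14, edgeR adjusted p = 0.937), which was not called. Without control replicate 1 it was -0.35 (SE 0.07, 95% interval -0.49 to -0.22, adjusted p = 0.00104). This call was not made in any setting that kept control replicate 1, where the adjusted p was at least 0.271. Aldoa, the major isoform, stood at 906, 875 and 912 FPKM in labelled libraries, against 624, 965 and 894 FPKM in control libraries, and was not called (log2 fold change 0.11, adjusted p = 0.949). Within each library, Aldoc made up 4.81%, 4.73% and 4.79% of aldolase FPKM in labelled libraries, against 6.12%, 5.72% and 5.87% in control libraries. Here control replicate 1 was not the low one and the groups did not overlap. The share of Aldoa was accordingly 95.2% ± 0.0440 in labelled libraries and 94.1% ± 0.202 in control libraries, a difference of 1.13 percentage points that was 1.02 to 1.22 with any one library left out. A two-sided exact permutation test gave p = 0.1, the smallest that 3 against 3 libraries allow, and 0.7 after adjustment over the 7 isoform shares examined. The longest transcript has a GC content of 56.9% for Aldoa and 51.9% for Aldoc, and the part of base composition in this share was not tested.

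**Figure D2:**
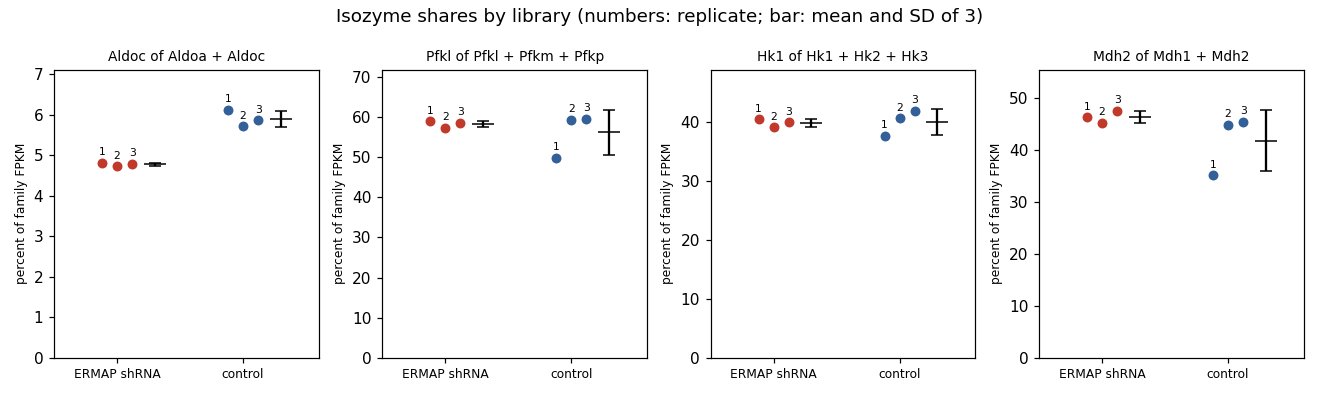
Share of 1 isozyme in the summed FPKM of its family in each library, for aldolase, phosphofructokinase, hexokinase and malate dehydrogenase, with libraries labelled ERMAP shRNA left of control libraries and bars for the mean and SD of 3. The aldolase groups do not overlap (4.73% to 4.81% against 5.72% to 6.12%), while in the other 3 families the ranges overlap or control replicate 1 stands alone.

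The other isoform shares did not separate the groups beyond the spread of the controls. Pfkl made up 58.9%, 57.3% and 58.5% of phosphofructokinase FPKM in labelled libraries, against 49.8%, 59.3% and 59.6% in control libraries (two-sided exact permutation p = 1). Hk1 made up 40.5%, 39.1% and 40.0% of the FPKM of Hk1, Hk2 and Hk3 in labelled libraries, against 37.7%, 40.7% and 42.0% in control libraries (exact permutation p = 0.8). Both families show the same layout, with control replicate 1 low and the remaining controls beside or above the labelled libraries. Mdh2, the mitochondrial malate dehydrogenase, made up 46.2%, 45.2% and 47.5% of the FPKM of Mdh1 and Mdh2 in labelled libraries, against 35.1%, 44.8% and 45.4% in control libraries (exact permutation p = 0.2). Idh2, the mitochondrial NADP-dependent isocitrate dehydrogenase, averaged 66.3% ± 0.539 of the FPKM of Idh1 and Idh2 in labelled libraries and 65.9% ± 6.91 in control libraries (exact permutation p = 1).

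Pkm and Pgk1, of the energy-yielding steps of glycolysis, had the highest mean FPKM of the 31. Pkm, the pyruvate kinase that makes pyruvate and ATP, led with 2279, 2083 and 2245 FPKM in labelled libraries, against 1639.7, 2197 and 2075 FPKM in control libraries. Its log2 fold change was 0.16 (SE 0.12, edgeR adjusted p = 0.937), and 0.04 without control replicate 1. Pgk1, the phosphoglycerate kinase that makes the pathway's earlier ATP, stood at 1131, 1039.8 and 1072 FPKM in labelled libraries, against 1075, 1262 and 1109.5 FPKM in control libraries. These ranges overlapped and the log2 fold change was -0.09 (SE 0.10, edgeR adjusted p = 0.938). Pgam1, the phosphoglycerate mutase, averaged 673 ± 22.6 FPKM in labelled libraries and 646 ± 102 FPKM in control libraries, and Tpi1, which interconverts the triose phosphates, 643 ± 15.3 FPKM in labelled libraries and 628 ± 91.3 FPKM in control libraries. Per length the order was Pkm, then Pgk1 and Ldha, then Aldoa, then Pgam1 and Tpi1, and within each of these pairs the labelled libraries overlapped. Summed over the 14 glycolytic enzymes the level was 5941 ± 213 FPKM in labelled libraries and 5645 ± 802 FPKM in control libraries. By library the sum was 6116, 5704 and 6003 FPKM in labelled libraries, against 4768, 6343 and 5824 FPKM in control libraries. Control replicate 1 was the lowest, and the other controls lay within or above the labelled range.

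Gapdh, the glyceraldehyde 3-phosphate dehydrogenase that is widely used as a reference gene, gave the most uneven values of the 31. It had 326, 332 and 1867 reads in the libraries labelled ERMAP shRNA, against 266, 431 and 372 reads in control libraries, which is 5.84, 5.32 and 29.9 FPKM in labelled libraries and 4.39, 6.23 and 5.91 FPKM in control libraries. Labelled replicate 3 was 4.79-fold above the next highest library, and Gapdh was the only one of 12491 tested genes to stand at least 3-fold above all other libraries there. The log2 fold change of 1.31 (SE 0.63, 95% interval -0.16 to 2.77, edgeR adjusted p = 0.817) was not called, and without that library it was 0.02. The level is also low for an enzyme whose neighbours in the pathway, Tpi1 and Pgk1, averaged 643 and 1081 FPKM in labelled libraries. Of all stretches of 50 bases in the Gapdh coding sequence of the GENCODE M21 annotation, 94.2% also occur, base for base, among 217 other annotated genes. Of these 216 are in the deposited table, 113 had reads, and together they held 20059, 21652 and 21545 reads in labelled libraries, against 15087, 25445 and 20877 reads in control libraries. Those sums exceed the reads given to Gapdh itself in every library. How reads that match several genes were counted is not given in the sources used here, and the part this plays in the Gapdh values was not tested.

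Shared sequence did not go with reads on the other genes in the same way for Pgam1 and Pgk1. The genes that share sequence with Pgk1 held 92 to 177 reads in labelled libraries and 102 to 204 reads in control libraries, against at least 34278 reads of Pgk1 itself in every library. Those that share sequence with Pgam1 held 207 to 225 reads in labelled libraries and 170 to 273 reads in control libraries, against at least 14270 reads of Pgam1 itself. Pgam1 and Pgk1 shared 100% of their coding 50-base stretches with other annotated genes and Pkm 52.9%, so that with Gapdh 4 of the 31 shared most of their sequence. Gpi1 shared 32.4%, Ldha 28.4%, Aldoa 16.9%, Tpi1 13.7%, Taldo1 13%, G6pdx 9.76% and Cs 8.56%. The remaining 20 enzymes, among them Acod1, Aldoc and Idh3a, shared none. The symbol Aldoa also stands on a second row of the table (ENSMUSG00000114515), which had 36, 44 and 46 reads in labelled libraries and 25, 66 and 55 reads in control libraries and was not called. All Aldoa values above are of the abundant row.

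Neither enzyme of pyruvate and lactate handling was called. Ldha, the lactate dehydrogenase subunit that reduces pyruvate to lactate, stood at 1104, 1058 and 1039 FPKM in labelled libraries, against 1014, 1172 and 1039.6 FPKM in control libraries (log2 fold change -0.02, SE 0.09, 95% interval -0.22 to 0.19, edgeR adjusted p = 0.980). Pdk1, a kinase that switches off pyruvate dehydrogenase, stood at 23.2, 23.4 and 23.7 FPKM in labelled libraries, against 25.7, 24.6 and 24.7 FPKM in control libraries. Its groups did not overlap, the single such case among the 31 with the labelled libraries below, but the log2 fold change was -0.10 (SE 0.08, adjusted p = 0.937) and it was not called. On the CPM scale 6.47% of all tested genes lay wholly below the controls in this way and 7.74% wholly above (14.2% together).

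The 4 pentose phosphate enzymes all had log2 fold changes from 0.00 to 0.13 and 0 were called. G6pdx, which catalyses the first and NADPH-forming step, stood at 88.2, 89.3 and 91.0 FPKM in labelled libraries, against 80.8, 80.5 and 86.5 FPKM in control libraries. Every labelled library lay above every control, by a log2 fold change of 0.11 (SE 0.08, edgeR adjusted p = 0.937). Pgd, which forms the second NADPH, averaged 89.8 ± 6.72 FPKM in labelled libraries and 82.3 ± 11 FPKM in control libraries. Transketolase (Tkt) and transaldolase (Taldo1) return carbon from the pathway to glycolysis. Tkt stood at 101, 93.6 and 102 FPKM in labelled libraries, against 69.1, 106 and 96.0 FPKM in control libraries, and Taldo1 at 136, 127 and 138 FPKM, against 114, 151 and 135 FPKM in control libraries. Without control replicate 1 the signs divided, with Tkt and Taldo1 at -0.04 and -0.10 and G6pdx and Pgd at 0.09 and 0.01 on the log2 scale, and the median of the 4 was -0.01 in place of 0.12.

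Of the 10 TCA cycle enzymes, 0 were called with all libraries and 1, Idh3a, was called higher without control replicate 1. Idh3a, the catalytic subunit of the NAD-dependent isocitrate dehydrogenase, stood at 229, 244 and 221 CPM in labelled libraries, against 224, 187 and 193 CPM in control libraries. Control replicate 1 lay among the labelled libraries and the other 2 controls below them. The log2 fold change was 0.20 (SE 0.10, edgeR adjusted p = 0.859) with all libraries and 0.28 (SE 0.07, 95% interval 0.14 to 0.42, adjusted p = 0.0104) without that one. When counts were instead corrected in each library for the GC content of the genes, it was 0.23 (adjusted p = 0.0677). The other subunits of the same complex, Idh3b and Idh3g, were not called in either fit.

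Ogdh, the first component of the 2-oxoglutarate dehydrogenase complex, stood at 43.6, 46.3 and 44.4 FPKM in labelled libraries, against 38.8, 43.0 and 41.4 FPKM in control libraries. Suclg1, the alpha subunit of succinyl-CoA ligase, stood at 25.9, 23.5 and 24.9 FPKM in labelled libraries, against 21, 23.2 and 22.7 FPKM in control libraries. In both, all labelled libraries lay above all controls on either scale, with log2 fold changes of 0.12 (SE 0.09) and 0.15 (SE 0.09) that were not called (edgeR adjusted p = 0.937 and 0.924). With G6pdx and Acod1 they make 4 of 31 enzymes whose labelled libraries lay wholly above the controls on the CPM scale, beside 7.74% of all tested genes. On the FPKM scale Pfkp did so too, by a margin too small to show in the rounded values above. Sucla2, the ATP-forming beta subunit of the same ligase, averaged 17.4 ± 1.61 FPKM in labelled libraries and 16.6 ± 1.45 FPKM in control libraries.

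Cs, the citrate synthase that opens the cycle, was among the steadiest genes, at 84.3, 82.2 and 86.7 FPKM in labelled libraries, against 81.7, 84.0 and 83.6 FPKM in control libraries. Fh1, the fumarase, averaged 67.5 ± 2.62 FPKM in labelled libraries and 67.0 ± 7.34 FPKM in control libraries. Idh1, the cytosolic isocitrate dehydrogenase, stood at 53.4, 55.2 and 56.2 FPKM in labelled libraries, against 61.3, 44.7 and 51.3 FPKM in control libraries. Its controls spread more widely than the labelled libraries, and without control replicate 1 its log2 fold change was 0.19 (SE 0.07, edgeR adjusted p = 0.158). Idh2 stood at 107, 106 and 111 FPKM in labelled libraries, against 85.2, 112 and 110.2 FPKM in control libraries, and Mdh2 at 117, 119 and 124 FPKM, against 94.3, 123 and 118 FPKM in control libraries. For both mitochondrial enzymes control replicate 1 was again the lowest library. Mdh1, the cytosolic malate dehydrogenase, stood at 137, 144 and 136 FPKM in labelled libraries, against 174, 151 and 142 FPKM in control libraries. It had the lowest fold change of the cycle, -0.17 on the log2 scale (SE 0.10, edgeR adjusted p = 0.923), and -0.08 without control replicate 1. The summed level of the 10 enzymes was 706 ± 8.14 FPKM in labelled libraries and 692 ± 11.4 FPKM in control libraries.

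**Figure D3:**
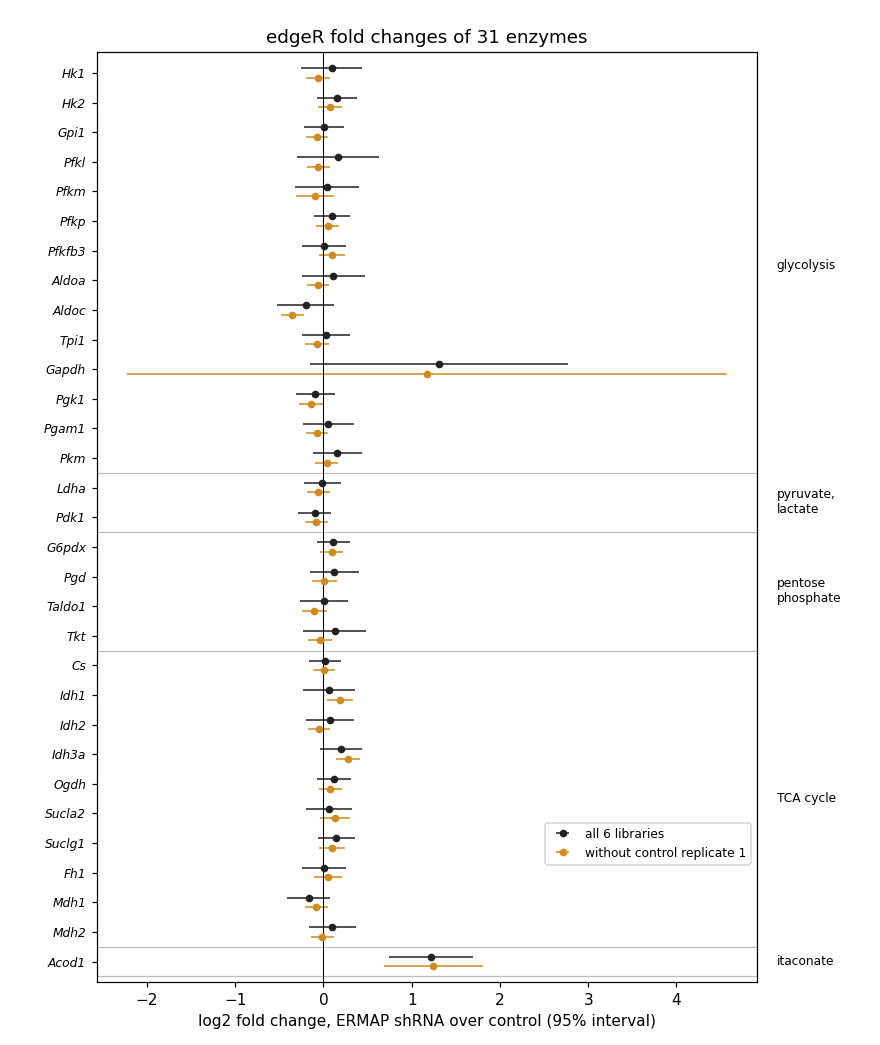
Log2 fold change of each enzyme, libraries labelled ERMAP shRNA over control, with the 95% interval from edgeR, using all 6 libraries (black) and without control replicate 1 (orange). Acod1 stands apart at 1.22 and 1.24, Gapdh has very wide intervals, and most glycolytic and pentose phosphate enzymes move toward lower values when control replicate 1 is left out.

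How the 31 enzymes lay relative to control depended on control replicate 1, more in some pathways than in others. With all libraries 12 of 14 glycolytic, 4 of 4 pentose phosphate and 9 of 10 TCA cycle enzymes had a log2 fold change above 0. Among all tested genes 6035 of 12491 did so. Without control replicate 1 the numbers were 5 of 14, 2 of 4 and 7 of 10, beside 6216 of 12793 tested genes. The medians of these pathways were then -0.06, -0.01 and 0.06, in place of 0.07, 0.12 and 0.07. Control replicate 1 was the lowest of the 6 libraries for 20 of the 31 enzymes and for 12 of the 14 of glycolysis. How often it was the lowest among all tested genes was not counted. Set against the mean of the other 2 controls it differed by a median log2 value of -0.38 in glycolysis, -0.33 in the pentose phosphate pathway and 0.06 in the TCA cycle. It lay below that mean for 23 of the 31 enzymes. Over all tested genes the median was -0.01, with 6337 of 12460 below. Among the enzymes the lowest were Pfkl at -0.78, Aldoa at -0.57, Tkt at -0.54 and Hk1 at -0.51, and the highest was Idh1 at 0.36.

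These deviations ran with the base composition of the transcripts. Across the 31 enzymes Spearman's rho between the deviation of control replicate 1 and the GC content of the longest transcript was -0.81, and across 12460 tested genes it was -0.73. The points share the same libraries, so this is a description and carries no p-value. Median GC content was 52.7% for the glycolytic enzymes, 53.1% for the pentose phosphate enzymes and 47.3% for the TCA cycle enzymes. Acod1, at 47.6% GC, deviated by 0.11, with 26 reads in control replicate 1 and 27 and 26 reads in the other controls. The cause of its fold change was not tested.

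**Figure D4:**
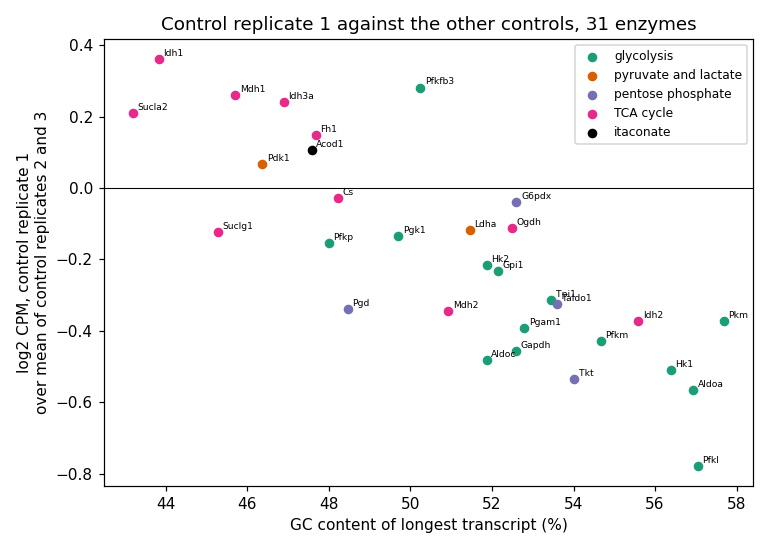
Log2 ratio of control replicate 1 to the mean of control replicates 2 and 3 for each of the 31 enzymes (vertical axis) against the GC content of its longest transcript in percent (horizontal axis), coloured by pathway. The points run downward from Idh1 and Sucla2 at the upper left to Pfkl, Aldoa and Hk1 at the lower right, with rho of -0.81.

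Without control replicate 1, 2 of the 31 enzymes were called higher (Acod1 and Idh3a) and 1 lower (Aldoc), against 2.67% and 2.19% of all tested genes. At an unadjusted p under 0.05 there were 3 higher and 2 lower, against 7.81% and 8.54% of all tested genes (16.4% in either direction). Beyond the called enzymes, Pgk1 had an unadjusted p of 0.042 (log2 fold change -0.14, edgeR adjusted p = 0.282) and Idh1 of 0.0148, and the groups did not overlap for 8 enzymes with the labelled libraries above and 2 with them below. Of all tested genes 16.6% and 16.1% did so (32.7% together) in that smaller comparison, in which 3 libraries are set against 2. The 95% interval lay inside 1.5-fold for 29 of the 31 enzymes, beside 9038 of 12793 tested genes.

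Beside the 31, a further 88 genes of the same pathways were listed, covering transporters, other isozymes, regulators and the remaining subunits, and 68 of them were tested. With all libraries 0 were called by edgeR as used throughout, beside 1.14% of all tested genes. Before adjustment 4 were above and 2 below at p under 0.05, beside 3.71% and 3.04% of all tested genes. Other settings with all libraries did make calls: DESeq2 and edgeR with no filter on low counts called Slc2a6 higher, and edgeR with the GC correction called Slc2a6 and Suclg2 higher and Eno3 lower. The median log2 fold change of the 68 was 0.01, and on the CPM scale 6 lay wholly above and 2 wholly below the controls, beside 7.74% and 6.47% of all tested genes. Without control replicate 1, 4 were called, Slc2a6 and Suclg2 higher and Eno3 and Pdk2 lower, beside 4.86% of all tested genes.

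Slc2a6, a hexose transporter of the lysosomal membrane, stood at 123, 123 and 136 CPM in labelled libraries, against 63.6, 94.7 and 87.0 CPM in control libraries. All labelled libraries lay above all controls, with a log2 fold change of 0.64 (SE 0.15, edgeR adjusted p = 0.164) and of 0.48 without control replicate 1 (adjusted p = 0.000112), and with the GC correction it was 0.56 (adjusted p = 0.000341). The plasma membrane glucose transporter Slc2a1 averaged 92.6 ± 1.67 FPKM in labelled libraries and 84.9 ± 9.59 FPKM in control libraries and was not called in either fit. Suclg2, the GTP-forming beta subunit that pairs with Suclg1, stood at 112, 119 and 114 CPM in labelled libraries, against 104, 95.1 and 94.1 CPM in control libraries. Its log2 fold change was 0.24 (edgeR adjusted p = 0.564), 0.28 without control replicate 1 (adjusted p = 0.0162) and 0.29 with the GC correction (adjusted p = 0.0380). Of its coding 50-base stretches 57.7% are shared with another annotated gene.

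Eno3, the enolase isoform best known from muscle, stood at 67.9, 53.4 and 63.3 CPM in labelled libraries, against 72.7, 104 and 85.2 CPM in control libraries. The groups did not overlap, and the log2 fold change was -0.51 (edgeR adjusted p = 0.358), -0.63 without control replicate 1 (adjusted p = 0.000638) and -0.55 with the GC correction (adjusted p = 0.00443). The enolase rows Eno1b and Eno1 were both far more abundant per length and were not called. Eno1b averaged 559 ± 23.6 FPKM in labelled libraries and 530.0 ± 104 FPKM in control libraries, and Eno1 averaged 527 ± 3.64 FPKM in labelled libraries and 508 ± 32.0 FPKM in control libraries. Other annotated genes share 93.5% of the coding 50-base stretches of Eno1b and 83.3% of those of Eno1, so their order is uncertain. Pdk2, a pyruvate dehydrogenase kinase like Pdk1, stood at 3.21, 3.59 and 2.46 CPM in labelled libraries, against 4.15, 5.60 and 6.34 CPM in control libraries, with log2 fold changes of -0.80 (edgeR adjusted p = 0.356), -0.95 without control replicate 1 (adjusted p = 0.00953) and -0.85 with the GC correction (adjusted p = 0.0605). Among regulators, Hif1a, the oxygen-sensing activator of many glycolytic genes, averaged 18.8 ± 1.21 FPKM in labelled libraries and 19.9 ± 5.85 FPKM in control libraries, and it was not called (log2 fold change -0.09, edgeR adjusted p = 0.955). The most abundant gene of each other list was not called either. The lactate exporter Slc16a3 averaged 115 ± 5.75 FPKM in labelled libraries and 102 ± 26.1 FPKM in control libraries, and the 6-phosphogluconolactonase Pgls 51.6 ± 1.34 FPKM in labelled libraries and 48.3 ± 14.8 FPKM in control libraries. Slc16a3 and Pgls had log2 fold changes of 0.16 and 0.09 with all libraries. Without control replicate 1 these were -0.04 and -0.14 (edgeR adjusted p = 0.835 and 0.312). The succinate dehydrogenase subunit Sdhd averaged 224 ± 7.86 FPKM in labelled libraries and 211 ± 19.8 FPKM in control libraries, and Txnip, which restrains glucose uptake, 132 ± 5.2 FPKM in labelled libraries and 126 ± 8.62 FPKM in control libraries. Of the 88, 20 had too few reads to be tested, among them Ldhb, Pdk4 and Pck1.

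**Figure D5:**
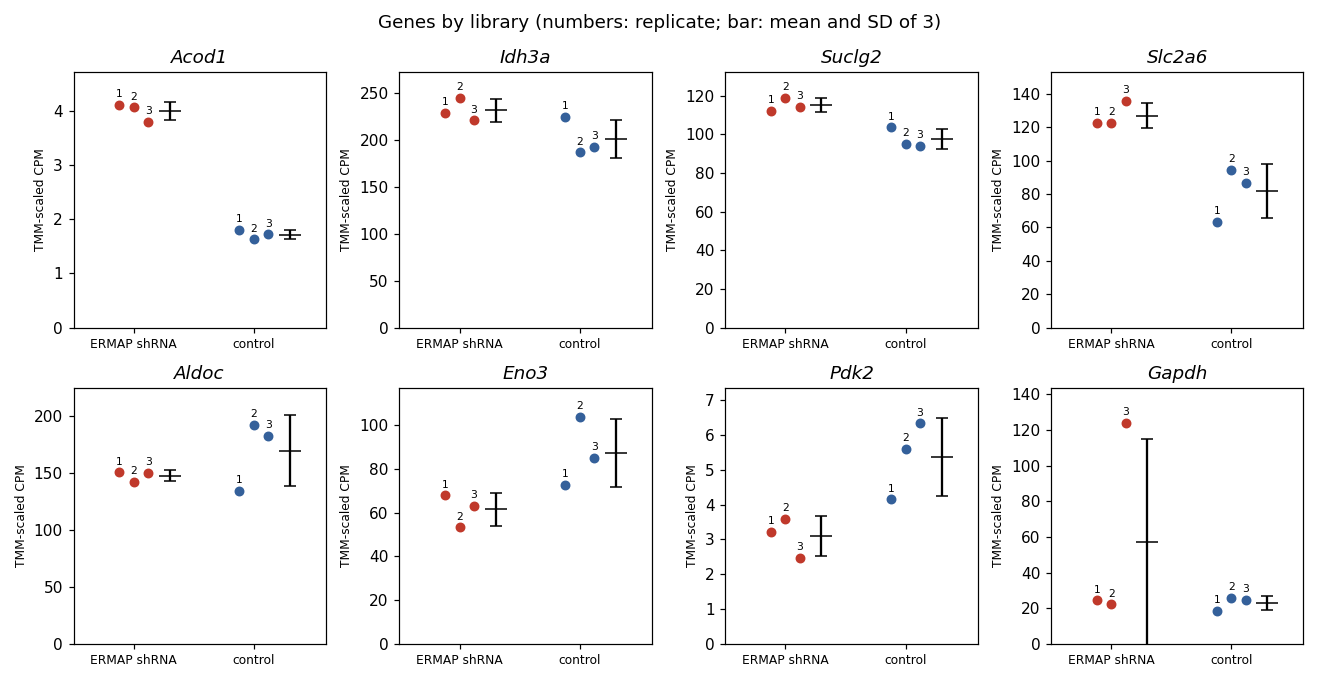
TMM-scaled CPM in each library for Acod1, Idh3a, Suclg2, Slc2a6, Aldoc, Eno3, Pdk2 and Gapdh, with libraries labelled ERMAP shRNA in red left of control libraries in blue, replicate numbers above the points and bars for the mean and SD of 3 (for Gapdh in labelled libraries the bar runs below the axis). Acod1 separates cleanly at 3.79 to 4.11 against 1.63 to 1.80 CPM, while in Idh3a and Aldoc control replicate 1 lies on the labelled side.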

How the data were processed

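RNA was sequenced from RAW264.7 cells in 6 libraries, 3 per group. The authors deposited read counts per gene and FPKM values per gene. Per the submitters' processing notes, reads were aligned with HISAT2 to mm10; the sources used here do not give the counting program, its strand setting, the annotation or any version. Table columns name the group and a number, which are used here as replicate numbers. The members and lists were chosen with earlier results of these data known, as was the rule for named genes: values in every library for enzymes called or at an unadjusted p under 0.05 in either fit, those highest in FPKM or highest or lowest in fold change of a pathway, and isozyme families; of the other pathway genes, those called and the most abundant of each list. Genes named beyond the rule (Slc2a1, Hif1a, Clybl, Eno1, Idh3b, Idh3g, and per-library values of Cs, Ogdh, Suclg1 and G6pdx) were chosen after their values were seen.

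Counts were tested with edgeR 4.0.16 (limma 3.58.1, R 4.3.3): TMM factors, filterByExpr at a minimum count of 10, robust quasi-likelihood F tests, Benjamini-Hochberg adjustment. The procedure was tested on simulated counts, drawn for each gene on its own. They did not include the GC-linked deviation of control replicate 1, so they cannot show how the procedure behaves with it. CPM are TMM-scaled counts computed here; FPKM are as deposited. Isoform shares were compared by two-sided exact permutation. Coding sequences of GENCODE M21 were compared in stretches of 50 bases, and motifs were searched in RefSeq windows of 250 bases. Gene coordinates are those of the deposited table. DESeq2 1.42.0, limma-voom, limma-trend on FPKM, other scaling factors and filters, a GC offset per library, a block by replicate number and the omission of single libraries were tried as alternatives. No replicate pair agreed within sampling noise. Some marker lists are not reported here.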

Additional observations from a re-analysis of the deposited data

How the results depend on the processing

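Acod1 was called higher, and no other enzyme in either direction, with RLE and upper-quartile scaling, DESeq2, limma-voom, no filter, a filter at a mean CPM of 1, limma-trend (log2 of FPKM plus 1 or plus 0.1) and the GC offset. At an adjusted p under 0.01 the number called higher was 0. Leaving out 1 library gave 0 to 2 enzymes called higher and 0 to 1 called lower, with Acod1 at 1.17 to 1.25 on the log2 scale and lost in each case but that of control replicate 1. Without control replicate 1, RLE scaling, DESeq2 and no filter each gave 2 enzymes called higher and 1 called lower, the same numbers as the main edgeR fit. Same-numbered libraries showed no consistent pairing (correlations -0.16, -0.33 and 0.23), but these values cannot tell whether a pairing exists. A replicate block gave 0 enzymes called higher, with Acod1 at 1.22 (edgeR adjusted p = 0.192), and 81 higher and 3 lower of all genes in place of 126 and 17. Of the other pathway genes, the number called higher was 1 with DESeq2, 1 with no filter and 2 with the GC offset, the number called lower was 1 with the GC offset, and leaving out 1 library gave 0 to 2 in each direction. Over all tested genes DESeq2 called 202 higher and 71 lower, and the GC offset 270 and 147. Uncalled enzymes near 0 changed sign: Pfkm was -0.0079 with the GC offset, and Taldo1 -0.00029 with RLE, -0.0084 with upper-quartile scaling, -0.00033 with DESeq2 and -0.036 with the GC offset. With 1 library left out, log2 fold changes ranged from -0.063 to 0.20 for Hk1, -0.057 to 0.32 for Pfkl, -0.10 to 0.20 for Pfkm, -0.058 to 0.23 for Aldoa, -0.059 to 0.046 for Ldha, -0.10 to 0.10 for Taldo1, -0.038 to 0.25 for Tkt, -0.046 to 0.19 for Idh1, -0.048 to 0.13 for Idh2 and -0.013 to 0.17 for Mdh2. Gpi1, Tpi1 and Pgam1 were -0.073, -0.074 and -0.072 without control replicate 1, against 0.0065, 0.029 and 0.054 with all libraries. The cause of these changes was not tested. Acod1 had the fewest reads of the 31 enzymes, 26 to 61 per library.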
